A study of Homo sapiens with 12 samples.

Results

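The genes described here are the 2 coactivators at the end of the Hippo pathway, YAP1 and WWTR1 (which encodes TAZ), the 4 TEAD transcription factors TEAD1 to TEAD4, and 4 genes widely used as readouts of their activity, CCN1 (formerly CYR61), CCN2 (formerly CTGF), AMOTL2 and ANKRD1. They were chosen by name, under the current symbol or an earlier symbol of the same Entrez gene, and each is represented by its brightest probe set. Of the 10 genes, 9 had a probe set of their own among 33616 genes with one, and 8 of these were among the 15247 genes tested. AMOTL2 lies on a probe set that carries 3 symbols (AMOTL2, MIR6827 and RPL39P5), so that no value can be given for it alone. ANKRD1 had a mean log2 signal of 5.14 on the arrays without Dox and fell below the filter of 6.5, which lies just above the 6.28 ± 0.22 (SD, n = 6 arrays) of ERG, a gene that these tumor cells barely transcribe.

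SK-N-MC and RDES are human cell lines established from Ewing sarcoma, a childhood tumor driven by an EWSR1-ETS fusion. Each was transduced with a lentiviral vector holding a Dox-inducible short hairpin RNA: shCtrl, which targets no gene, shCDS, directed at the coding sequence of PRC1, or shUTR, named for an untranslated part of its transcript. The resulting 6 derivative lines were grown for 60 h without Dox or with 1 µg/ml Dox, which was renewed at 48 h, and total RNA of each of the 12 conditions was hybridized to 1 Clariom D array. Whether a derivative line is a single clone is not given in the sources used here. The log2 signal of a probe set is a relative measure within that probe set, so that levels are compared between arrays and not between genes. A p-value in this design measures only the spread between derivative lines.

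In the Hippo pathway the kinases MST1 and MST2 (STK4 and STK3) activate the kinases LATS1 and LATS2, which phosphorylate YAP and TAZ and thereby keep them out of the nucleus. When that brake is released, for example on stiff substrates, at low cell density or when the actin cytoskeleton is under tension, YAP and TAZ enter the nucleus, bind TEAD factors on DNA and switch on genes such as CCN1 and CCN2. The pathway is known for its control of organ size, growth and cell shape. The arrays measure RNA levels only, and neither the phosphorylation nor the location of the proteins.

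The following stems define the hairpin groups. They are shown in full in lower case, as designed in the study, 5′ to 3′.
shCtrl: caacaagatgaagagcaccaa
shCDS: caggaacattcaaaggcattt
shUTR: gcctgacttctctaccacata
PRC1, a protein that bundles microtubules in dividing cells, had a Dox difference of −4.02 with shCDS and −2.93 with shUTR in SK-N-MC cells, and of −3.96 and −1.47 in RDES cells (log2 signal with Dox minus without Dox). The corresponding differences with shCtrl were −0.11 and −0.03. The gene was thus lower with Dox in each of the 4 shPRC1 lines, and least so in RDES shUTR cells.

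TEAD factors bind the DNA motif GGAATG (on the other strand CATTCC), which begins with the letters GGAA of the ETS core. RefSeq promoter windows of 300 bases, from 250 bases before a transcription start to 50 after it (GRCh38.p14), were given for 7 of the 10 genes. The motif stood in those of 4, namely CCN2 with 3 matches, ANKRD1 with 2, and YAP1 and AMOTL2 with 1 each, and in none of the windows of WWTR1, TEAD2 and TEAD3. Among all 35116 windows, 14.0% held the motif at least once, 1.36% at least 2 times and 0.125% at least 3 times. Counted over genes, 16.7% of 27305 genes had it in at least 1 window, beside 4 of the 7 genes here, which have 10 windows in all. The stretches of the measured genes are printed here because the target genes CCN2 and ANKRD1 carry the motif more than once. CCN1 was not among the 7. Capitals mark the motif, and each is written along the strand of its gene.
CCN2, minus strand, chr6:131951524-131951553: ttttcagacggaGGAATGctgagtgtcaag
CCN2, minus strand, chr6:131951459-131951488: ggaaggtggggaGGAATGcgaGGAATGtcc
ANKRD1, minus strand, chr10:90921290-90921319: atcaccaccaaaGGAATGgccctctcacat
ANKRD1, minus strand, chr10:90921198-90921227: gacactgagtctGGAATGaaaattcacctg
YAP1, plus strand, chr11:102110273-102110302: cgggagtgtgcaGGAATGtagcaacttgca
A match of letters is a description of the window and says nothing about binding in these cells. ANKRD1, with 2 matches, stayed below the filter on every array, and CCN2, with 3, was among the genes that differed between the cell lines. WWTR1, without a match, also differed between them, and YAP1, with 1 match, did not pass that test.

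All arrays had a median log2 signal between 5.29 and 5.40, and no 2 arrays held identical values. The arrays labelled RDES shCtrl resembled SK-N-MC: STAG2, a cohesin subunit, was at 6.10 and 6.01 there, against 5.84 to 6.06 for the 4 shPRC1 arrays of SK-N-MC and 13.78 to 14.01 for those of RDES, and BGN, a matrix proteoglycan, was at 15.59 and 15.67 against 4.42 to 4.78 in RDES shPRC1 arrays. The SK-N-MC shCtrl arrays had STAG2 at 9.15 and 9.32. The comparison of the cell lines therefore rests on the 4 shPRC1 lines, with both arrays of a line averaged, and is given again with the shCtrl lines. Of 8 Ewing sarcoma markers 7 were measured and all 7 were above the filter. The haematopoietic markers had none of 3 above it, the endothelial markers 1 of 4, the epithelial markers 2 of 5 (KRT8 and KRT18) and the fibroblast markers 5 of 5.

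The first question is how the cell lines themselves differ in the pathway. Of the 8 genes tested, 4 had a higher signal in SK-N-MC cells and none had a lower one: the coactivator WWTR1, the factor TEAD4 and the target genes CCN1 and CCN2. The other coactivator, YAP1, and TEAD1, TEAD2 and TEAD3 did not pass the test. Over all genes 20.8% were higher and 16.0% lower in SK-N-MC cells (limma, Benjamini-Hochberg adjusted p under 0.05), so that calls are frequent in this comparison. The median difference of the 8 genes was 0.71 log2, against 0.093 over all genes tested. CCN2 is among the 4 calls and in this median. It reached the filter only through its higher arrays, so that passing the filter and passing the test are not independent for CCN2.

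WWTR1 (chr3:149517235-149724788) encodes TAZ, the paralog of YAP. Before Dox its log2 signal was 9.05 with shCDS and 9.33 with shUTR in SK-N-MC, against 7.14 and 6.72 with the same hairpins in RDES. With Dox the 4 values in that order were 8.11, 8.70, 6.57 and 6.60. All 4 SK-N-MC arrays thus lay above all 4 RDES arrays, and the RDES arrays stood close to the filter. The difference of 2.04 log2 (SE 0.22, 95% interval 1.53 to 2.55) is a 4.11-fold higher signal in SK-N-MC, with an adjusted p of 0.000436 in limma. The SK-N-MC shCtrl arrays, at 8.26 and 8.93, and the arrays labelled RDES shCtrl, at 9.01 and 9.14, lay within the range of SK-N-MC shPRC1 cells.

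CCN1 (chr1:85580761-85583950) encodes a secreted matrix-associated protein and is an early responder to YAP and TAZ. With shCDS its signal before and after Dox was 8.33 and 8.38 in SK-N-MC, against 7.52 and 6.49 in RDES. With shUTR it was 8.14 and 7.97 in SK-N-MC, against 6.16 and 7.39 in RDES. The groups did not overlap, 2 of the 4 RDES arrays were below 6.5, and the RDES arrays were spread more widely (SD 0.67 against 0.19, n = 4 arrays each). The difference was 1.32 (SE 0.21, interval 0.84 to 1.80, adjusted p = 0.00235 in limma), a 2.49-fold higher signal in SK-N-MC, or 2.34-fold with the RDES signals below the filter raised to it. The fit uses the mean of both arrays of a line, in which the opposite Dox shifts of the 2 RDES lines largely cancel. Its SE and p-value therefore do not hold that spread. The SK-N-MC shCtrl arrays were at 7.89 and 8.81. The arrays labelled RDES shCtrl, at 10.33 and 10.34, had the highest CCN1 signals of all 12, a place that both arrays held for 5.63% of all genes tested.

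CCN2 (chr6:131948176-131951372) encodes connective tissue growth factor, a secreted protein of the same family as CCN1. With shCDS it was at 7.57 before and 7.70 after Dox in SK-N-MC, against 5.93 and 6.28 in RDES. With shUTR it was at 6.89 and 6.93 in SK-N-MC, against 5.66 and 6.58 in RDES. The groups again did not overlap. Since 3 of the 4 RDES arrays were below 6.5, CCN2 reached the filter only through its higher arrays, and the size of the difference is a lower bound. With signals below the filter raised to it, CCN2 was at least 1.68-fold higher in SK-N-MC (0.75 log2), and the fit on the signals as measured gave 1.16 (SE 0.26, adjusted p = 0.0113 in limma). The SK-N-MC shCtrl arrays had 6.67 and 6.79, below the SK-N-MC shPRC1 arrays, whereas 7.70 and 7.45 were found on the arrays labelled RDES shCtrl.

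TEAD4 (chr12:2959397-3040676), a TEAD factor best known from the trophectoderm and from muscle, was at 8.47 before and 8.48 after Dox in SK-N-MC with shCDS, and at 8.41 and 7.73 with shUTR. RDES had 6.94 and 7.06 with shCDS, and 6.66 and 7.74 with shUTR. SK-N-MC was higher by 1.17 (SE 0.22, interval 0.67 to 1.67, adjusted p = 0.00474 in limma), a 2.25-fold difference. The arrays of both lines met at the RDES shUTR array with Dox, which stood just above the lowest SK-N-MC array. The SK-N-MC shCtrl arrays were at 7.87 and 8.38, and the arrays labelled RDES shCtrl at 7.89 and 8.07, above all RDES shPRC1 arrays.

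WWTR1, CCN1 and CCN2 were the 3 of 8 genes whose 4 SK-N-MC arrays all lay above the 4 RDES arrays, an order found for 23.6% of all genes tested. For CCN2 this order is not independent of the filter. None of the 8 had the opposite order, which 18.0% of all genes showed. As labelled, with all 6 derivative lines, none of the 15247 genes passed (limma), and the differences were 1.20 for WWTR1 (adjusted p = 0.372), 0.83 for TEAD4 (0.353), 0.49 for CCN2 (0.573) and 0.22 for CCN1 (0.911). When only the arrays labelled RDES shCtrl were left out, all 4 genes passed, with 1.97, 1.12, 0.98 and 1.37 in the same order. Without the SK-N-MC shCDS pair, TEAD4 (0.97, adjusted p = 0.0519) and CCN2 (0.80, adjusted p = 0.0861) did not pass. Markers of fibroblasts also differed in this direction, with 4 of 5 called higher in SK-N-MC and a mean log2 signal of 9.00 to 9.63 on the SK-N-MC arrays against 7.46 to 7.99 on the RDES arrays, and so did both tested epithelial markers, KRT8 and KRT18, while the epithelial genes EPCAM and CDH1 were below 6.5 on all 12 arrays. Of the 7 tested Ewing sarcoma markers, 5 were called lower in SK-N-MC and 1, STEAP1, was called higher. Over all genes 16.0% were lower and 20.8% higher. The part of these marker genes in the difference was not tested.

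**Figure D1:**
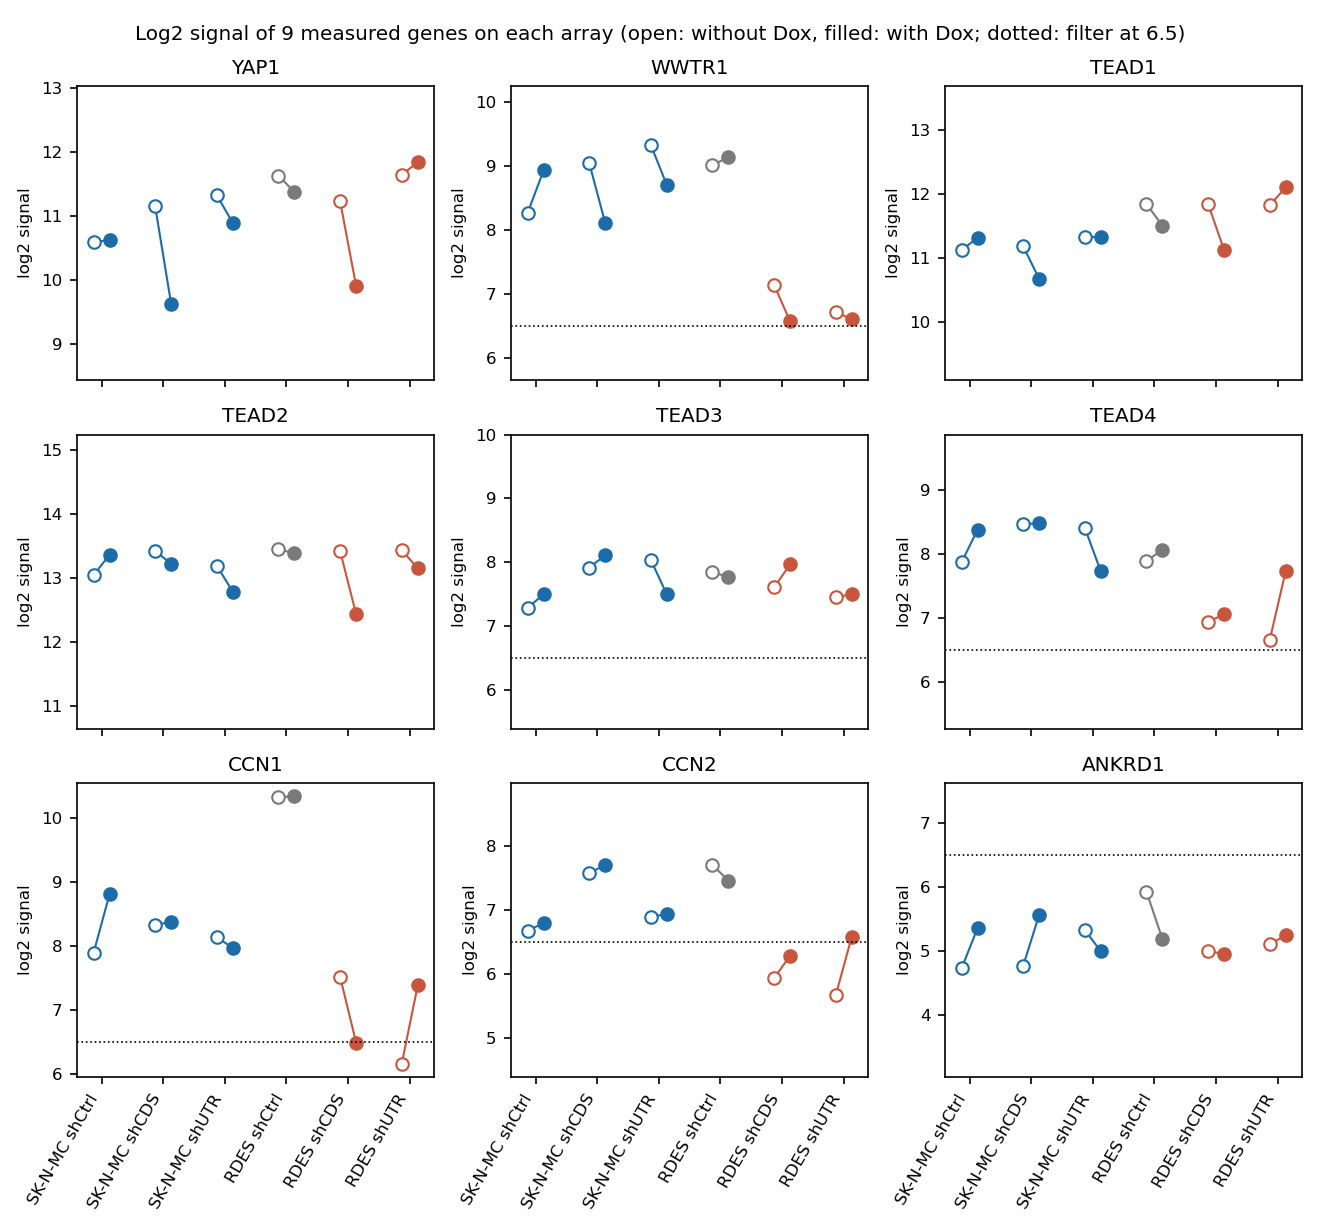
Log2 signal (vertical axis) of the 9 measured genes in the 6 derivative lines (horizontal axis), with 1 array per point, open without Dox and filled with Dox, SK-N-MC in blue, RDES in red and the arrays labelled RDES shCtrl in grey, and the filter of 6.5 as a dotted line. WWTR1, CCN1 and CCN2 lie higher in all SK-N-MC shPRC1 arrays than in RDES shPRC1 arrays, the grey points lie with SK-N-MC for WWTR1 and above all others for CCN1 at 10.33 and 10.34, and ANKRD1 stays below 6.5 throughout.

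The remaining genes showed smaller differences between the lines. YAP1 (chr11:102110447-102233424) averaged 10.74 ± 0.77 on the SK-N-MC and 11.15 ± 0.87 on the RDES shPRC1 arrays (SD, n = 4 arrays each), and its difference of −0.41 (interval −1.33 to 0.52, adjusted p = 0.468 in limma) did not pass. TEAD1 (chr11:12674421-12944737), the factor most widely found across tissues, ranged from 10.67 to 11.32 in SK-N-MC and from 11.12 to 12.10 in RDES, with a difference of −0.59 (interval −1.16 to −0.03, adjusted p = 0.0909). In the fit without the RDES shCDS pair, YAP1 was at −0.99 and TEAD1 at −0.83. That fit sets both SK-N-MC lines against RDES shUTR alone, so that a cell line difference cannot be told apart from a hairpin difference in it. Without the RDES shUTR pair, YAP1 was at 0.18.

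TEAD2 (chr19:49340595-49362416) had a difference of 0.04 (interval −0.47 to 0.56), with 12.79 to 13.43 in SK-N-MC and 12.44 to 13.44 in RDES. TEAD3 (chr6:35473597-35497079) had 0.26 (interval −0.23 to 0.74), with 7.50 to 8.11 and 7.46 to 7.97. The arrays of both lines overlapped for each of these 2 factors. ANKRD1 (chr10:90912096-90921087), a nuclear protein of stretched muscle cells and a target of YAP in many adherent cells, was between 4.72 and 5.92 on all 12 arrays, with a difference of 0.09 in the fit that included genes below the filter. CCN1 and CCN2 were thus the only 2 of the 3 measured target genes with a signal above the filter.

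Of 30 kinases, scaffolds and other regulators of the Hippo pathway, 27 were measured and 25 tested, of which 6 were higher in SK-N-MC (24%) and 3 lower (12%), beside 20.8% and 16.0% of all genes. These shares lie near those of all genes. FAT1, a giant protocadherin that acts upstream of the kinases, lay between 3.60 and 3.93 in SK-N-MC, below the filter on every array, and between 10.82 and 11.27 in RDES shPRC1 arrays. It was at least 23.4-fold higher in RDES, counted from the filter. In the SK-N-MC shCtrl arrays FAT1 was at 6.81 and 6.91, between both groups, and in the arrays labelled RDES shCtrl at 4.07 and 3.18. STK4, the kinase MST1, was at 9.28 to 9.93 in SK-N-MC and 10.52 to 11.55 in RDES (difference −1.52). FRMD6, a FERM-domain protein that promotes Hippo signaling, was at 7.61 to 8.13 and 5.81 to 6.54, below the filter on 3 of 4 RDES arrays and at least 2.49-fold higher in SK-N-MC, and AJUBA, a LIM-domain protein that restrains LATS kinases, at 9.74 to 9.91 and 7.44 to 8.63 (difference 1.56). The median difference over the 25 genes was 0.14.

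Among the vestigial-like proteins, which bind TEAD factors in competition with YAP and TAZ, VGLL3 was at 7.97 to 9.03 in SK-N-MC and at 6.48 to 7.31 in RDES (difference 1.72, called). VGLL4 did not pass, and VGLL1 and VGLL2 were below the filter. Of 26 further genes described as targets of YAP and TAZ, 22 were measured and 12 tested, and 5 were higher (41.7%) and 3 lower (25%) in SK-N-MC, with a median of 0.26, beside the same 20.8% and 16.0% of all genes. Passing the filter and the test are not independent for those of them that are low in 1 cell line. CRIM1, a transmembrane protein that binds growth factors of the BMP family, had 9.79 to 10.81 in SK-N-MC and 6.17 to 6.65 in RDES, where 3 of 4 arrays were below the filter, and was at least 14.4-fold higher in SK-N-MC. The RNA-binding protein RBMS3 was at least 4.60-fold higher, with 2 of 4 RDES arrays below the filter, and the ubiquitin ligase subunit FBXO32 at least 1.61-fold higher, with all 4 below it. IGFBP3, a carrier of insulin-like growth factors, was at 6.20 to 6.69 in SK-N-MC, with 2 of 4 arrays below the filter, and at 7.63 to 9.44 in RDES, and so at least 4.74-fold lower in SK-N-MC. None of the 9 genes named here from these lists passed with all 6 lines as labelled.

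**Figure D2:**
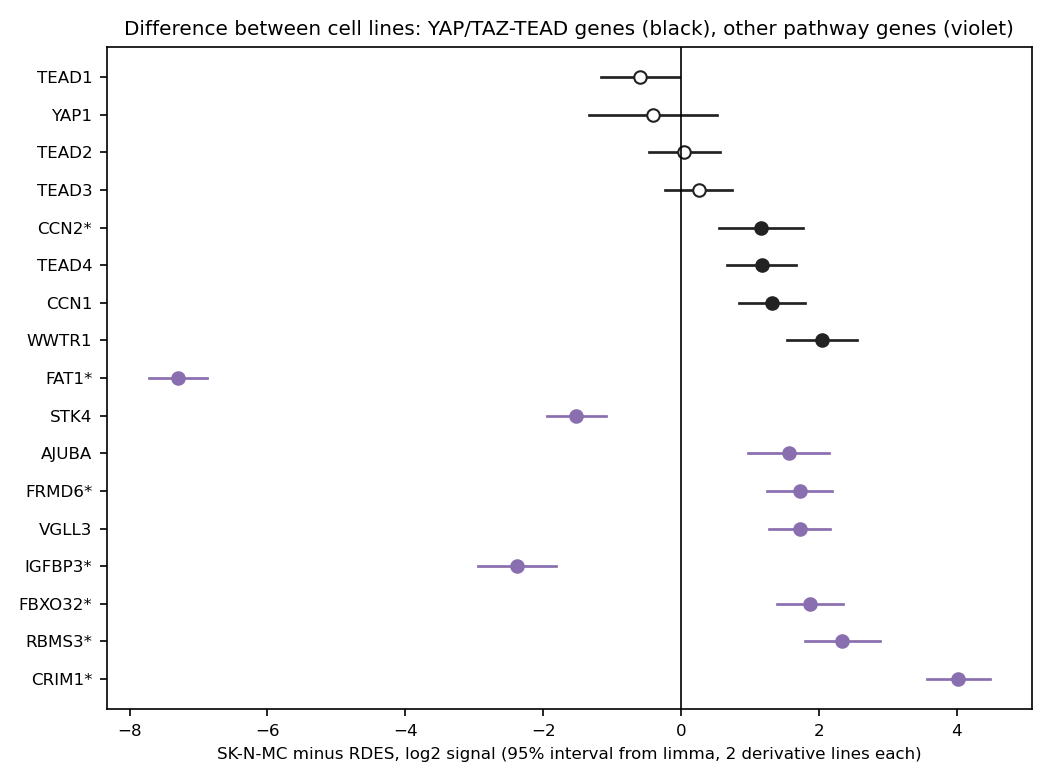
SK-N-MC minus RDES difference in log2 signal (horizontal axis) with its 95% interval from limma over 2 derivative lines of each cell line, for the 8 tested genes (black) and the 9 named genes of the pathway lists (violet), filled where the adjusted p was under 0.05. An asterisk marks the 7 genes whose lower cell line averaged below the filter of 6.5, so that the plotted value is the difference of signals as measured and only its direction should be read. Among the black genes without an asterisk, WWTR1 at 2.04 lies farthest from 0, and YAP1, TEAD1, TEAD2 and TEAD3 are open.

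The genes whose signal followed that of WWTR1 most closely over the 12 arrays were ADAM22, SLC25A40 and CRIM1, each with a Pearson r of 0.981 among 15247 genes. For CCN1 they were LOC389831 (0.974), TMEM176B (0.974) and SMAD6 (0.970), and for CCN2 they were SLC33A1 (0.954), FBXL12 (0.943) and TRAPPC1 (0.940). These values describe 12 arrays of 2 cell lines, which are not independent samples. The nearest genes of WWTR1 include a listed target gene, CRIM1. Those of CCN1, like CCN1 itself, had a higher mean in the arrays labelled RDES shCtrl than in the shPRC1 arrays of either line. SMAD6 was at 12.49 there against 11.03 (SK-N-MC) and 10.22 (RDES). All these genes were picked by their likeness over the same 12 arrays, so that such shared levels follow from the choice and are no separate observation.

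The second question is whether silencing of PRC1 moved these genes. The Dox difference of a shPRC1 line was set against that of the shCtrl line with the same cell line label by subtraction, and the 4 shPRC1 lines served as replicates. For both RDES lines that control is the pair labelled RDES shCtrl, whose STAG2 and BGN signals resembled SK-N-MC. The RDES values after subtraction, and the means and coefficients that include them, therefore rest on a control of doubtful cell line. None of the 8 genes passed, and none of the 15247 genes did (0% called, limma, smallest adjusted p 0.999). An unadjusted p under 0.05 in limma was found for 401 genes, a smaller share than the 0.05 that would come up if no gene differed. PRC1 itself did not pass in this fit (−3.02, interval −4.24 to −1.80, unadjusted p = 0.000156, adjusted p = 0.999 in limma), so that the lack of a call does not show that a gene stayed as it was. WWTR1 was the only one of the 8 among the 401. Subtracting the control left 7 of the 8 genes below 0, with a median of −0.32 against −0.01 over all genes tested. Without that step the means of YAP1, WWTR1, TEAD1 and TEAD2 were below 0. Those of TEAD3, TEAD4, CCN1 and CCN2 were above it, at 0.01, 0.13, 0.02 and 0.36. Among SK-N-MC control cells none of the 8 genes was lower with Dox (median difference 0.27, against 0.111 over all genes tested). Of the pair labelled RDES shCtrl, 5 genes were lower (median −0.07, the same as over all genes).

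WWTR1 was lower with Dox in all 4 shPRC1 lines. In SK-N-MC it differed by −0.94 with shCDS and by −0.63 with shUTR, and in RDES by −0.57 with shCDS and by −0.12 with shUTR. The 4 lines so retained 52.1%, 64.6%, 67.5% and 92.3% of the signal they had before induction. With shCtrl the difference was 0.67 in SK-N-MC cells and 0.13 in the arrays labelled RDES shCtrl. After subtraction the mean was −0.96 ± 0.61 (SD, n = 4 lines), with an interval of −1.68 to −0.24, an unadjusted p of 0.0132 and an adjusted p of 0.999 (limma). Without subtraction the mean was −0.56 ± 0.34, and the coefficient was −0.47 when the shCtrl pair of SK-N-MC was left out. The difference of 0.67 in that single control pair enters the values of both SK-N-MC lines.

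TEAD2 was the other gene that was lower in all 4 lines, at −0.19 (shCDS) and −0.41 (shUTR) for SK-N-MC and at −0.99 (shCDS) and −0.29 (shUTR) for RDES. The mean after subtraction was −0.60 ± 0.30 (SD, n = 4 lines, interval −1.28 to 0.08, adjusted p = 0.999 in limma). Before subtraction, 5.11% of all genes tested were lower in all 4 lines, and after subtraction 7.55% were, with WWTR1 and TEAD2 in both counts. CCN2 alone of the 8 genes was higher in all 4 lines before subtraction (0.13, 0.04, 0.35 and 0.92 in the same order, mean 0.36 ± 0.39), as were 7.14% of all genes. After subtraction CCN2 was at 0.00, −0.09, 0.60 and 1.17.

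YAP1 values separated by hairpin. In shCDS cells its signal went from 11.15 without Dox to 9.62 with Dox in SK-N-MC and from 11.23 to 9.90 in RDES, which left 34.5% and 39.6%. In shUTR cells it went from 11.32 to 10.89 in SK-N-MC and from 11.64 to 11.84 in RDES, or 73.8% and 115% of the signal without Dox. The shCtrl pairs went from 10.59 to 10.62 (SK-N-MC) and from 11.63 to 11.37 (arrays labelled RDES shCtrl). Both shCDS arrays with Dox thus held the lowest YAP1 signals of the 12 arrays. YAP1 was one of 66 genes (0.433% of all tested) that were at least 1 log2 lower with Dox in both shCDS lines, and the 2 lines share their hairpin.

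**Figure D3:**
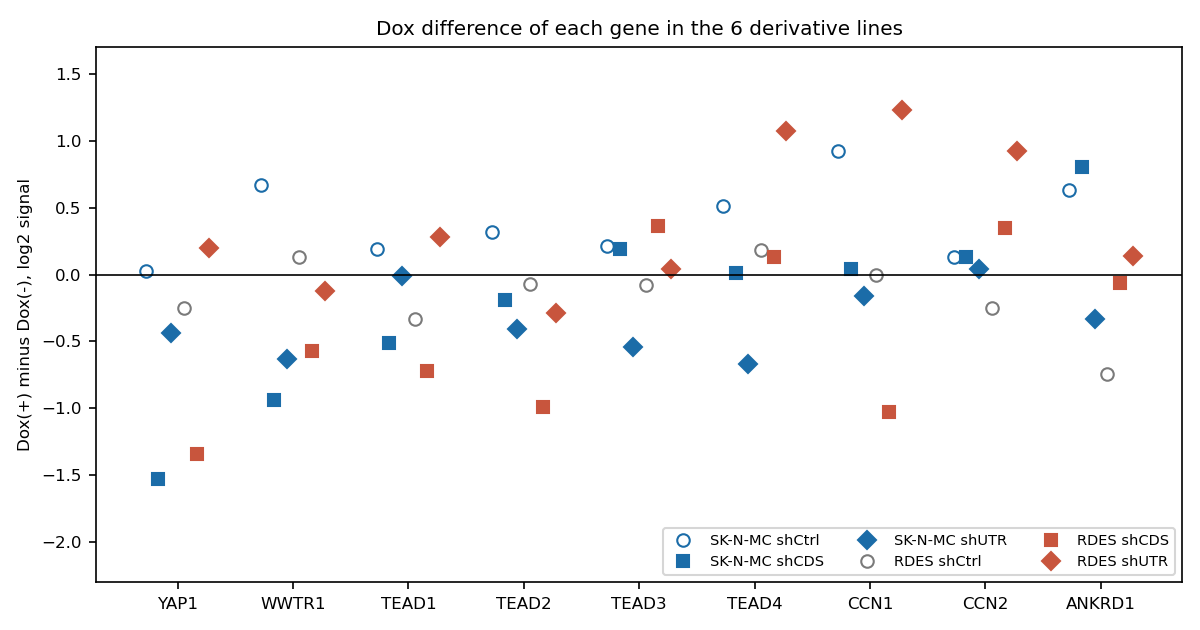
Dox difference in log2 signal (with Dox minus without Dox, vertical axis) of the 9 measured genes (horizontal axis) in each derivative line, with open circles for shCtrl, squares for shCDS and diamonds for shUTR, SK-N-MC in blue, RDES in red and the pair labelled RDES shCtrl in grey. The 2 YAP1 squares lie at −1.53 and −1.34, the 4 filled WWTR1 and TEAD2 symbols all lie below 0, and CCN1 spans from −1.03 in RDES shCDS to 1.23 in RDES shUTR cells.

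The difference between the 2 hairpins was tested directly over the 6 derivative lines. The shCtrl pairs enter this fit only through the estimate of the spread, where the pair labelled RDES shCtrl counts as RDES. For YAP1 the Dox effect with shCDS was 1.32 log2 below that with shUTR (coefficient −1.32, SE 0.40, interval −2.13 to −0.50, unadjusted p = 0.00254), which did not pass after adjustment over all genes (adjusted p = 0.472 in limma, 0.158 to 1 over the alternatives). The coefficient stayed between −1.66 and −0.98 when each derivative line was left out in turn. CCN1 had −1.03 (unadjusted p = 0.0345, adjusted p = 0.918) and TEAD1 −0.75 (adjusted p = 0.981). None of the 8 genes passed, and the 2 of 15247 genes that did (0.0131%), MAPK6PS1 and SF3B6, are named after their values were seen. PRC1 itself was lower with Dox by more in shCDS than in shUTR cells in both cell lines, as given above. A difference between the hairpins therefore cannot be told apart from a difference in the depth of silencing.

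The Dox differences of CCN1 and TEAD1, like those of YAP1 (−1.34 with shCDS and 0.20 with shUTR), had opposite signs with the 2 hairpins in RDES cells. Over all genes tested the median was −0.055 in RDES shCDS and 0.174 in RDES shUTR cells. CCN1 was at −1.03 in RDES shCDS cells, 48.8% of the signal without Dox, and at 1.23 in RDES shUTR cells, 234% of it, against 0.04 and −0.16 in SK-N-MC cells. In the SK-N-MC shCtrl pair CCN1 went from 7.89 to 8.81, a difference of 0.92 without any hairpin against PRC1, so that both SK-N-MC lines came to −0.88 and −1.08 after subtraction. The mean after subtraction was −0.44 ± 1.12 (SD, n = 4 lines), and without subtraction 0.02 ± 0.93. TEAD1 was at −0.51 with shCDS and −0.01 with shUTR in SK-N-MC, against −0.72 and 0.28 in RDES.

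TEAD3 and TEAD4 showed no common direction. TEAD3 had 0.19 with shCDS but −0.54 with shUTR in SK-N-MC, and 0.36 and 0.04 with these hairpins in RDES. TEAD4 had 0.01 and −0.67 in SK-N-MC, against 0.13 and 1.07 in RDES, where the shUTR cells had 210% of the signal without Dox. ANKRD1, below the filter, had 0.80 and −0.33 in SK-N-MC, against −0.06 and 0.14 in RDES, beside 0.63 and −0.74 in the shCtrl pairs. Its control pairs thus differed as widely as the shPRC1 lines.

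**Figure D4:**
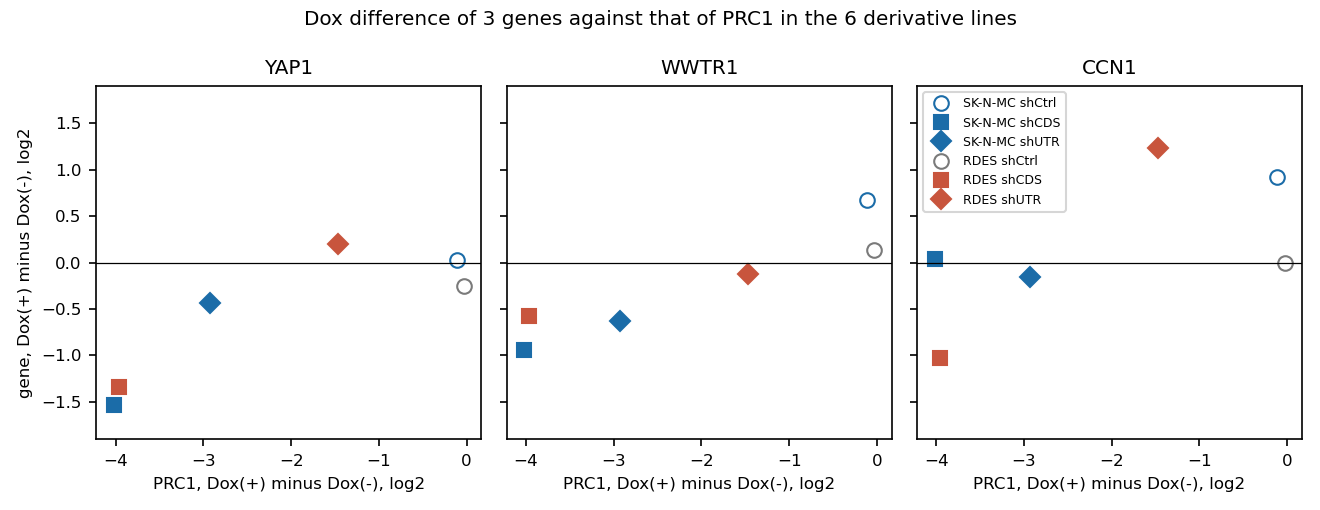
Dox difference of YAP1, WWTR1 and CCN1 in log2 signal (vertical axes) against that of PRC1 (horizontal axis) in the 6 derivative lines, with symbols and colors by hairpin and cell line. The 2 shCDS lines, with PRC1 at −4.02 and −3.96, have the lowest YAP1 differences, at −1.53 and −1.34, and the CCN1 differences at the same PRC1 values are 0.04 and −1.03. SK-N-MC shUTR cells, with PRC1 at −2.93, have YAP1 at −0.44. Since the 2 shCDS lines share their hairpin, the depth of PRC1 silencing cannot be told apart from the hairpin used.

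None of the 8 genes passed the test of a different response in the cell lines. The Dox effect in RDES minus that in SK-N-MC was 0.93 for TEAD4 (interval 0.01 to 1.85, unadjusted p = 0.0477, adjusted p = 1 in limma), 0.55 for CCN2 (interval −0.27 to 1.38), 0.44 for WWTR1 (−0.38 to 1.27) and 0.42 for YAP1 (−0.68 to 1.52). Over all genes, 2 of 15247 passed (0.0131%), ALDOC and STC1, both named after their values were seen. Only for TEAD1 did the interval, from −0.88 to 0.95, exclude a difference of 1 log2 in both directions, and that of CCN1 was the widest, from −1.06 to 1.37.

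The regulators around these genes gave no call with Dox either. None of the 25 tested Hippo regulators, 2 vestigial-like genes and 12 further target genes passed in any of the 3 Dox comparisons (limma). Their medians after subtraction of shCtrl were −0.21, −0.26 and −0.09. Before subtraction, 22 of the 25 regulators were lower with Dox in SK-N-MC shUTR cells and 5 in RDES shUTR cells, where the median over all tested genes was −0.154 and 0.174. With shCDS they numbered 11 in SK-N-MC and 15 in RDES cells. The 12 further target genes had medians of −0.16 with shCDS and −0.38 with shUTR in SK-N-MC, of −0.14 and 0.07 with these hairpins in RDES, and of 0.25 and −0.19 for the shCtrl pairs.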

How the data were processed

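The authors processed 12 Human Clariom D arrays with SST-RMA (background correction, quantile normalization and probe summary) and deposited log2 signals per probe set, for which the methods name Transcriptome Analysis Console 4.0, the series description Expression Console 1.4 and the submitters' processing notes RMA and hg38. Of 135750 probe sets, 36176 carried a single gene symbol, 1119 several and 98455 none in the platform table, and the last 2 kinds were left out. The brightest probe set stood for a gene. As in the methods, a gene was tested if its mean over the 6 Dox-free arrays reached 6.5. Gene positions and promoters are from RefSeq (GRCh38.p14), and hairpins from the study's oligo list.

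Models used limma 3.58.1 under R 4.3.3 (functions lmFit, eBayes, two-sided, Benjamini-Hochberg over 15247 genes, threshold 0.05) and tested on simulated data. The Dox differences of 6 derivative lines were fitted with cell line and shPRC1 against shCtrl, or with cell line and hairpin, and those of the 4 shPRC1 lines with cell line. Levels were compared over the 4 shPRC1 lines. Each condition has 1 array, so derivative lines are the replicates, their number limits the precision, and p-values measure their spread. The genes, the pathway and marker lists and the tests were chosen with earlier results of these data known. Named genes are the 10 genes, PRC1, STAG2 and BGN, up to 4 genes per pathway list with the widest difference between the lines among those called, and the 3 genes most alike to WWTR1, CCN1 and CCN2. Alternatives were no filter, the mean of all probe sets, centring, a variance trend, other sets of lines or arrays, a random block and leaving out each line.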

Additional observations from a re-analysis of the deposited data

How the results depend on the processing

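WWTR1, CCN1, CCN2 and TEAD4 were higher in SK-N-MC in each of the 12 alternatives of that comparison, at 1.20 to 2.26, 0.22 to 1.47, 0.49 to 1.53 and 0.83 to 1.64, and they passed in 11, 11, 10 and 10 of them. Of 216 values of named genes in alternatives of that comparison, 191 kept their direction and their side of the threshold, 15 no longer passed, 4 newly passed and 6 turned direction. With all 6 lines as labelled, 0 genes in all passed, and with one derivative line left out in turn 3040 to 6565 did. TEAD2 was at −0.04 with all 6 lines and at −0.13 on the arrays without Dox only. With one line left out in turn, TEAD2 ran from −0.14 to 0.23, YAP1 from −0.99 to 0.18 and PRC1 from −0.18 to 1.32. With a line left out, the hairpins are unequal between the cell lines, so that a cell line difference cannot be told apart from a hairpin difference. The cause of these shifts was not tested.

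For the Dox effect of shPRC1 minus shCtrl, 0 genes passed, 1 gene without subtraction of shCtrl and 0 to 1 with one line left out in turn, PRC1 in either case. TEAD3 was at 0.02 with centred arrays. Without subtraction TEAD3 was at 0.01, TEAD4 at 0.13 and CCN1 at 0.02. With one line left out in turn, TEAD1 ran from −0.45 to 0.11, TEAD3 from −0.39 to 0.28, TEAD4 from −0.84 to 0.42, CCN1 from −1.01 to 0.09 and CCN2 from −0.04 to 0.88. WWTR1 was between −1.45 and −0.47 in its 11 alternatives and YAP1 below 0 in each of its own, and neither passed in any.

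For the Dox effect in RDES minus SK-N-MC, the 2 genes became 0 with centred arrays, 0 with a variance trend, 14 with hairpin as a term and 5 to 70 with one line left out in turn. With centred arrays TEAD1 was at −0.15 and CCN1 at −0.03. With one line left out in turn, YAP1 ran from −0.35 to 1.19, TEAD1 from −0.46 to 0.54, TEAD2 from −0.69 to 0.01, CCN1 from −0.97 to 1.29 and PRC1 from −0.49 to 2.01.

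For shCDS minus shUTR, the 2 genes became 0 with centred arrays and 1 to 28 with one line left out in turn. TEAD2 then ran from −0.60 to 0.11, TEAD4 from −1.06 to 0.79, CCN1 from −2.22 to 0.17 and CCN2 from −0.71 to 0.24. Leaving out the RDES shUTR pair turned each of these 4, and leaving out the RDES shCDS pair turned TEAD2 and TEAD4 as well. In all, 6 of 90 values of named genes in alternatives of this comparison turned direction. None of the 8 genes passed in any alternative of the 3 Dox comparisons. The labels carry no replicate number, and a pairing of the cell lines by hairpin is the fit with hairpin as a term given above (14 genes against 2). The signals of ANKRD1 throughout, of CCN1, CCN2, WWTR1, CRIM1, FRMD6, RBMS3 and FBXO32 in RDES, and of FAT1 and IGFBP3 in SK-N-MC lie near or below the filter, which was set by a gene taken as barely transcribed.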
